A study of Mus musculus with 2 samples.

Results

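The genes described here encode the presynaptic release machinery, and they were read in single spiral ganglion neurons of mice, the cells through which the cochlea reports sound to the brainstem. They were chosen by symbol, as every listed gene named Syt, Cplx, Stx, Stxbp, Vamp, Rims, Rab3, Unc13, Sv2, Snap or Syn followed by a digit or by 1 or 2 further characters. The rule found 94 of 14425 listed genes. Of these, 62 belong to the families meant by the names (13 synaptotagmins, 2 complexins, 13 syntaxins, 7 syntaxin-binding proteins, 6 VAMPs, 4 RIMs, 4 Rab3 GTPases, 3 Unc13 genes, 3 SV2 genes, 4 SNAP genes and 3 synapsins). The other 32 lie outside these families and match by the letters of the symbol. Among them are Snap91, which encodes the clathrin assembly protein AP180, and Synm, which encodes the intermediate filament protein synemin. Syne1, which encodes a protein of the nuclear envelope, and the Snapc genes of a transcription complex are others. Some of the 32 may still act at the synapse, which this split does not weigh. Both kinds are counted below, and a symbol match is named as one.

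The 2 genotypes were compared with 1 library each. Per the labels, iCON mice (the control) were Runx1-CreER/+; Ai14/+ and iCKO mice were Runx1-CreER/Runx1F; Ai14/+, so that both carried the tamoxifen-inducible Cre driver at Runx1 and the tdTomato reporter, and iCKO mice also carried a floxed Runx1 allele. Mice of both libraries received tamoxifen on postnatal day 1. Cochlear tissue of both sexes was collected on postnatal days 27 to 29 and cells were sorted for tdTomato, so the cells read are those marked through the driver. The number of animals is not given in the labels. The design asks how loss of Runx1, a transcription factor, after birth changes these neurons.

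At a chemical synapse, a vesicle filled with transmitter docks at the plasma membrane and fuses with it when calcium enters. Fusion is driven by SNARE proteins: a VAMP on the vesicle, and a syntaxin and SNAP25 on the plasma membrane. The Unc13 proteins help to prepare the complex, complexins clamp and assist it, and synaptotagmins sense calcium, with Syt1 and Syt2 as fast sensors and Syt7 as a slower sensor of higher calcium affinity. RIMs and Rab3 hold vesicles at the active zone, synapsins hold them in reserve, and SV2 proteins sit in the vesicle membrane. Spiral ganglion neurons receive from hair cells at 1 end and release glutamate at the other, in the brainstem; type I neurons are the myelinated majority, with subtypes that differ in Calb2 and Lypd1, and type II neurons are few.

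Values are levels in CPM (UMIs of a gene per 1000000 UMIs of the cell), averaged over cells; a UMI is a tag that marks a single captured RNA molecule. There were 462 cells in iCON, with a median of 49725.5 UMIs, and 407 in iCKO, with a median of 33602. Runx1 RNA averaged 86.7 CPM in iCON and 112 CPM in iCKO, so lower Runx1 RNA does not mark the iCKO library. UMIs counted at the 3′ end need not fall in the floxed part, and whether it was deleted cannot be read from them, so every direction below is between libraries as labelled. Cells with Xist and no Y-linked RNA made up 54.5% of iCON and 78.4% of iCKO cells, and cells with little RNA of 5 myelin genes (under 200 CPM in sum) 21.9% and 37.1%. No cell barcode was shared. Neuronal markers were present in every class split by Lypd1 and Calb2: the summed level of 6 neuronal genes averaged 12001 to 23232 CPM, while that of 8 Schwann or satellite glia genes averaged 1477 to 4033 CPM. Over all cells the glial sum averaged 3749 CPM in iCON and 1888 CPM in iCKO. The part of these differences in the results was not tested, and with 1 library per genotype no test between genotypes was possible.

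Cells were split by Lypd1 and Calb2. Lypd1-high cells had at least 1000 CPM of Lypd1 (180 iCON and 126 iCKO cells). Among cells with under 100 CPM of Lypd1, Calb2-high cells had at least 10000 CPM of Calb2 (85 and 201 cells) and Calb2-intermediate cells 1000 to under 10000 CPM (139 and 52 cells). The remaining 58 and 28 cells fell outside these limits. A class is a range of these 2 genes, not a cell type: between 0.8 and 1.25 times the 10000 CPM limit of Calb2 lay 25 iCON and 48 iCKO cells. Lypd1 is itself a type Ic marker, so the others were read alone. In Lypd1-high against Calb2-high cells of iCON, Pou4f1 averaged 95.7 against 0.527 CPM, Grm8 96.6 against 1.07 CPM and Ntng1 225 against 12.7 CPM, and in iCKO they averaged 108 against 8.62, 87.7 against 2.06 and 208 against 76.7 CPM. Ntng1 was also at 195 and 209 CPM in Calb2-intermediate cells. In iCON the 3 markers of type Ib summed to 239 CPM in Calb2-intermediate cells against 23.3 to 25.3 CPM in the other 2 classes. In iCKO the classes were less distinct in Calb2 and Calb1. The median of Calb2 in Lypd1-high cells was 4323 CPM, against 181 CPM in iCON. The type Ib markers of iCKO summed to 163 CPM in Calb2-high and 230 CPM in Calb2-intermediate cells. Most of the 163 CPM was Calb1 (136 CPM, against 121 CPM in Calb2-intermediate cells). The other 2 type Ib markers were lower in Calb2-high cells, Ttn at 21.4 against 101 CPM and Lrrc52 at 5.55 against 8.68 CPM.

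The members on which the results turn are shown first with the sequence at their gene starts, because the compared mice differ in a transcription factor. Stxbp5l (chromosome 16, 37114942 to 37384962, minus strand) encodes tomosyn-2, a protein that binds syntaxin and holds back SNARE assembly. Syt2 (chromosome 1, 134646677 to 134762593, plus strand) and Syt1 (chromosome 10, 108497650 to 109010982, minus strand) encode the fast calcium sensors; the gene positions are those of the GENCODE M21 annotation of mm10. The windows below run from 250 bases before to 50 bases after the RefSeq start (build GRCm38.p6, which is the sequence of mm10), 5′ to 3′ on the gene's strand. Capitals mark the GC box GGGCGG, which lies in many neuronal and housekeeping promoters, or its reverse complement CCGCCC.
Stxbp5l, chr16:37384909-37385208, minus strand: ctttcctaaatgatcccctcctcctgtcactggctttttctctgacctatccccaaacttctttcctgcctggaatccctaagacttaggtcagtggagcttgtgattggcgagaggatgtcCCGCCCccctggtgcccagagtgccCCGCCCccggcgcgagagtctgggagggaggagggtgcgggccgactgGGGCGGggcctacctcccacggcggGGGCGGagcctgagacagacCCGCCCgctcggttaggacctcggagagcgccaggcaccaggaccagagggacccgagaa
Syt2, chr1:134646362-134646661, plus strand: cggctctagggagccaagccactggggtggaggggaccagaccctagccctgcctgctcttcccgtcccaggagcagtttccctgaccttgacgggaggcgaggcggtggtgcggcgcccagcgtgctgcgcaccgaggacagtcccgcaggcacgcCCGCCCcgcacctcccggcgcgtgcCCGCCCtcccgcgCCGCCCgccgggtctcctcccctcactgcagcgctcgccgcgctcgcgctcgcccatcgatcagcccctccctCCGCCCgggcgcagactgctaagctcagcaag
Syt1, chr10:109010926-109011225, minus strand: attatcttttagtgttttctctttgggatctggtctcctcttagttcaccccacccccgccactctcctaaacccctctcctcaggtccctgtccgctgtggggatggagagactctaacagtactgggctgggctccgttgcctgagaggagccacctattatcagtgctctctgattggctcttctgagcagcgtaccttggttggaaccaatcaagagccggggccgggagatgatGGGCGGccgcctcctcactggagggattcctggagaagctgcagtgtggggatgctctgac
The window of Stxbp5l holds 5 GC boxes, the one shown for Syt2 holds 4 and the one shown for Syt1 holds 1. Syt2 and Syt1 each have a further start in the table, with 2 GC boxes for Syt2 and 0 for Syt1. None of these 5 windows holds the RUNX core TGTGGT or its reverse complement ACCACA. Over all 32851 windows of this length, 35.7% hold the GC box and 16.8% the RUNX core; of the 92 windows of members (74 of 94 members have one), 63.0% hold the GC box and 17.4% the RUNX core. A match describes these letters and is not a binding site, and a window without a match says nothing of the factor. Syt7 has no window in the table used.

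In both libraries release genes were at their highest in the core of the machinery. Snap25, the plasma membrane SNARE, averaged 3111 CPM in iCON and 2705 CPM in iCKO, and was read in every cell. Rab3a, which ties vesicles to the active zone, averaged 1562 and 1688 CPM, and Cplx1, the complexin, 1198 and 1402 CPM. Syt11, a synaptotagmin that does not bind calcium, came next with 989 and 1142 CPM. Vamp1, the vesicle SNARE, was at 573 and 629 CPM. By level in iCON, 3 members lay at 1000 CPM or more, 20 at 100 to under 1000, 12 at 50 to under 100, 24 at 10 to under 50 and 35 under 10 CPM; in iCKO the counts were 4, 21, 8, 24 and 37. The order of the 5 highest members was the same in both libraries.

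For most pairs of close paralogs, 1 gene supplied nearly all the RNA. UMIs of this assay are counted at the 3′ end of a transcript, so levels do not grow with its length, but how well 2 genes are captured and assigned can still differ and was not tested. The share of Vamp1 in the UMIs of Vamp1 and Vamp2 was 91.3% in iCON and 92.9% in iCKO. Syt1 gave 2.24% of the UMIs of Syt1 and Syt2 in iCON and 1.16% in iCKO, so that Syt2 supplied the rest. Without 27 iCON and 4 iCKO cells marked as type II, described further on, these shares were 1.0% (0.791 to 1.26) and 1.01% (0.756 to 1.32). Cplx1 gave 98.2% and 99.2% of the complexin UMIs, Rab3a 95.7% and 96.5% of those of Rab3a and Rab3c, and Unc13a 99.4% and 96.7% of those of Unc13a and Unc13c. Unc13a, the priming factor, was itself low, at 24.0 and 21.0 CPM, which is 518 and 291 UMIs. Unc13c had 3 and 10 UMIs, 9 of the 10 from 1 cell.

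Other pairs were shared more evenly. Rims1 gave 35.9% of the UMIs of Rims1 and Rims2 in iCON and 36.2% in iCKO. Syn1, a synapsin, gave 69.2% and 69.4% of those of Syn1 and Syn2, and Sv2a 61.4% and 60.2% of those of Sv2a and Sv2b. By class, the share of Syn1 in iCON was 75.9% in Calb2-high cells (exact 95% binomial interval 73.5 to 78.2) and 69.4% in Lypd1-high cells (67.6 to 71.1). In iCKO it was 71.9% (70.0 to 73.7) and 68.4% (66.0 to 70.7), with intervals that overlap. The share of Sv2a was 67.3% (64.6 to 69.9) and 57.7% (55.6 to 59.8) in the same cells, and in iCKO 62.7% (60.6 to 64.8) and 57.5% (54.5 to 60.4). In both libraries the share of Sv2a was thus higher in Calb2-high than in Lypd1-high cells, though in iCKO the intervals nearly meet. In Calb2-intermediate cells it was 61.0% (58.7 to 63.3) in iCON and 53.0% (48.4 to 57.6) in iCKO. The first lies between the other 2 classes, and the second lies below both. These intervals, like all others here, are at 95% and cover counting error only.

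Summed over all 94 members, the level was much the same in the 3 classes. The sum averaged 13315 to 13569 CPM in the 3 classes of both libraries, and was lower in the remaining cells (10483 CPM in iCON and 11945 CPM in iCKO). The few members of high level make up most of this sum, so it says little of the others. A member was compared where it averaged at least 50 CPM, with a UMI in at least 25% of cells, on either side; ratios are log2 with 5 CPM added to each mean, and 1.5-fold (0.58 on the log2 scale) was the size at which a difference is counted.

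Between Lypd1-high and Calb2-high cells of iCON, 34 members could be compared. Stxbp5l alone passed the minimum on a single side, the Lypd1-high cells where it was high. Stxbp5l was past 1.5-fold higher in Lypd1-high cells and Syt7 past 1.5-fold lower. These 2 of 34 are 5.88%, and over all 3775 genes compared 6.49% were past that fold. The median log2 ratio was 0.03 for the members and 0.03 for all genes. The share of members is thus near that of all genes, and what follows describes 2 genes, not the machinery as a group.

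Syt7 (chromosome 19, 10389090 to 10453180, plus strand) was lower in Lypd1-high cells of both libraries. In iCON the lowest, median and highest cell were at 14.1, 185 and 569 CPM in Lypd1-high cells, 76.6, 318 and 848 CPM in Calb2-intermediate cells and 103, 356 and 792 CPM in Calb2-high cells. The ranges overlap, but only 4.44% of Lypd1-high cells lay above the median of Calb2-high cells. The means were 196, 332 and 370 CPM, and the log2 ratio of Lypd1-high over Calb2-high cells was -0.90 (interval of summed UMIs -1.01 to -0.81). In iCKO the lowest, median and highest cell were at 0, 262 and 669 CPM in Lypd1-high cells, 153, 348 and 700 CPM in Calb2-intermediate cells and 113, 427 and 882 CPM in Calb2-high cells. There 9.52% of Lypd1-high cells lay above the Calb2-high median, the means were 269, 377 and 451 CPM, and the log2 ratio was -0.74 (-0.81 to -0.62). The order of the 3 classes was the same in both libraries, and Calb2-intermediate cells lay nearer to Calb2-high cells.

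Stxbp5l ran the other way. In iCON the lowest, median and highest cell were at 0, 90.7 and 273 CPM in Lypd1-high cells, 0, 69.6 and 238 CPM in Calb2-intermediate cells and 0, 31.7 and 128 CPM in Calb2-high cells. Of the Lypd1-high cells, 91.7% lay above the median of Calb2-high cells. The means were 93.5, 76.5 and 37.6 CPM, and the log2 ratio of Lypd1-high over Calb2-high cells was 1.21 (1.08 to 1.57). In iCKO the medians were 86.6, 87.2 and 43.8 CPM and the means 85.8, 87.4 and 54.1 CPM, with 71.4% of Lypd1-high cells above the Calb2-high median. The log2 ratio in iCKO was 0.62 (0.51 to 0.94), just past 1.5-fold, and it was 0.52 among cells with little myelin RNA and 0.32 among cells with Y-linked RNA and no Xist. With 20 CPM added to each mean it was no longer past 1.5-fold. In iCKO 2 of 35 members were past that fold, again Stxbp5l and Syt7, against 4.10% of all 3728 genes compared.

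**Figure D1:**
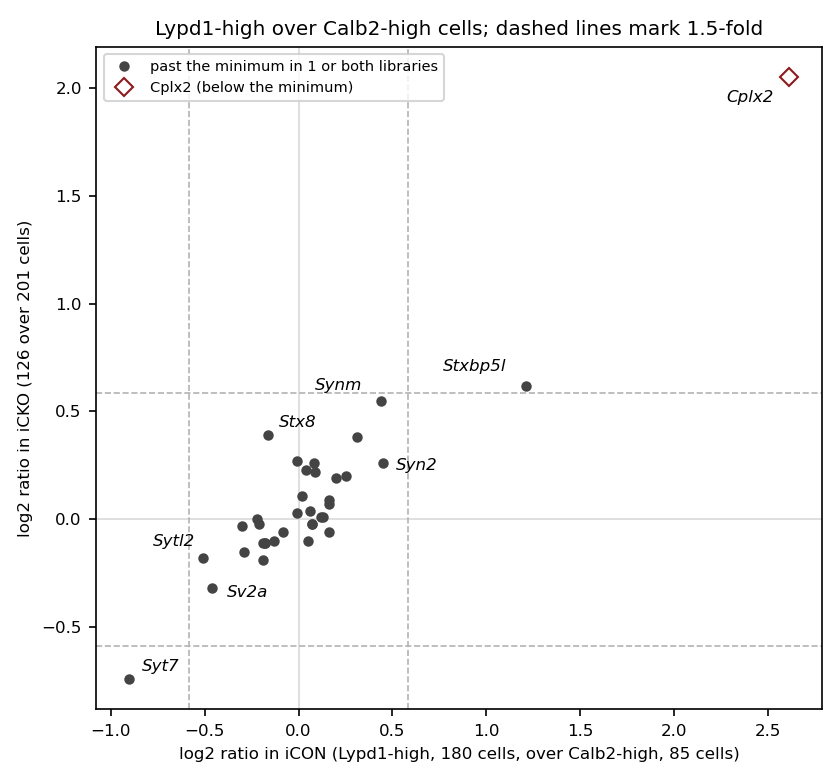
Log2 ratio of Lypd1-high over Calb2-high cells for each member past the minimum in 1 or both libraries, in iCON (x axis, 180 over 85 cells) and in iCKO (y axis, 126 over 201 cells). Dashed lines mark 1.5-fold; Syt7 lies past them on the lower left (-0.90 and -0.74) and Stxbp5l on the upper right (1.21 and 0.62), while Cplx2, drawn as an open diamond, is below the minimum.

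Cplx2 (chromosome 13, 54371349 to 54383917, plus strand), the minor complexin, was below the minimum and is described after its values were seen. In iCON the lowest, median and highest Lypd1-high cell were at 0, 36.2 and 247 CPM, and the mean was 47.8 CPM. In Calb2-high and Calb2-intermediate cells the median was 0 and the means 3.66 and 4.49 CPM. The log2 ratio of Lypd1-high over Calb2-high cells was 2.61, from 433 and 17 UMIs. In iCKO the means were 26.9 CPM in Lypd1-high, 2.69 CPM in Calb2-high and 7.30 CPM in Calb2-intermediate cells, and the log2 ratio was 2.05, from 115 and 21 UMIs. With each cell thinned to 20000 UMIs, a UMI of Cplx2 was found in 55.1% of Lypd1-high iCON cells (47.4 to 62.5) and 27.2% of Lypd1-high iCKO cells (19.6 to 35.9); without thinning these were 70.0% and 34.9%. In Calb2-high cells the thinned shares were 8.43% and 4.48%. In Calb2-intermediate cells they were 10.1% (5.66 to 16.4) in iCON and 17.6% (8.40 to 30.9) in iCKO. The interval in iCKO overlaps that of Lypd1-high cells. Whether RNA from outside the cells adds to the shares of any class was not tested. Syt1, also below the minimum, had 60 UMIs in Lypd1-high and 0 in Calb2-high cells of iCON and 36 and 3 UMIs in iCKO, but 1 Lypd1-high cell held 42 of the 60 and 1 held 29 of the 36. Without that cell, Syt1 averaged 2.17 CPM in iCON and 1.63 CPM in iCKO Lypd1-high cells.

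**Figure D2:**
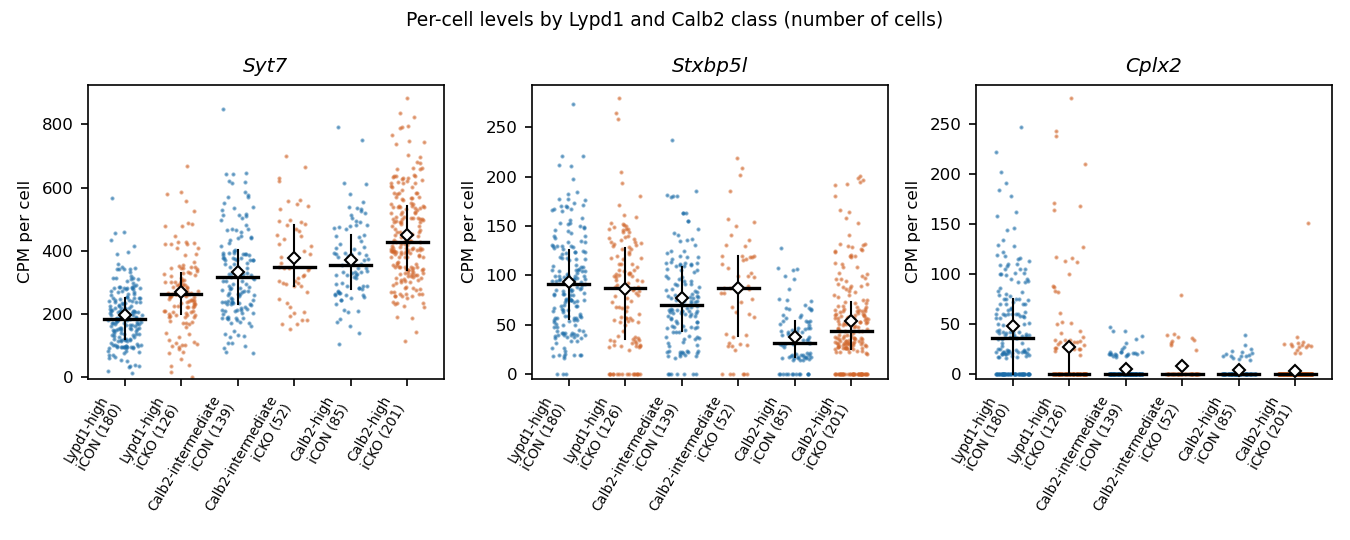
Level of Syt7, Stxbp5l and Cplx2 in every cell (CPM), by class and library, with the number of cells in brackets. Points are cells, horizontal bars medians, vertical bars the middle 50% of cells and open diamonds means; Syt7 is lowest and Cplx2 highest in Lypd1-high cells of both libraries.

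Because Calb2 was higher in Lypd1-high cells of iCKO, levels were also read by Calb2 within these cells. In iCON, Syt7 averaged 185 CPM in the 140 Lypd1-high cells with under 1000 CPM of Calb2 and 234 CPM in the 39 cells with 1000 to under 10000 CPM. The 1 iCON cell with at least 10000 CPM of Calb2 was at 129 CPM of Syt7, from 12 UMIs. In iCKO Syt7 averaged 225 CPM in the 30 cells with under 1000 CPM, 267 CPM in 82 cells with 1000 to under 10000 CPM and 371 CPM in 14 cells with at least 10000 CPM. Apart from that 1 iCON cell, Syt7 was thus higher at higher Calb2 among Lypd1-high cells of both libraries. In the 2 lower Calb2 bins its mean was higher in iCKO. Stxbp5l averaged 89.8, 89.7 and 54.4 CPM over the same iCKO bins, and Cplx2 averaged 39.5, 26.6 and 1.97 CPM, the last from 1 UMI. In the first 2 of these bins Cplx2 averaged 50.2 and 40.0 CPM in iCON, so that its log2 ratio of iCKO over iCON was -0.31 and -0.51 there. Over cells thinned to 20000 UMIs, without regard to class and without shallower or type II-marked cells, Spearman's rho of Syt7 with Calb2 was 0.48 in 427 iCON and 0.44 in 401 iCKO cells. The points share a library and their CPM values a total, so these are descriptions. Cells low in both Lypd1 and Calb2 were 32 in iCON and 8 in iCKO, of which 27 and 4 are the type II-marked cells described further on.

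**Figure D3:**
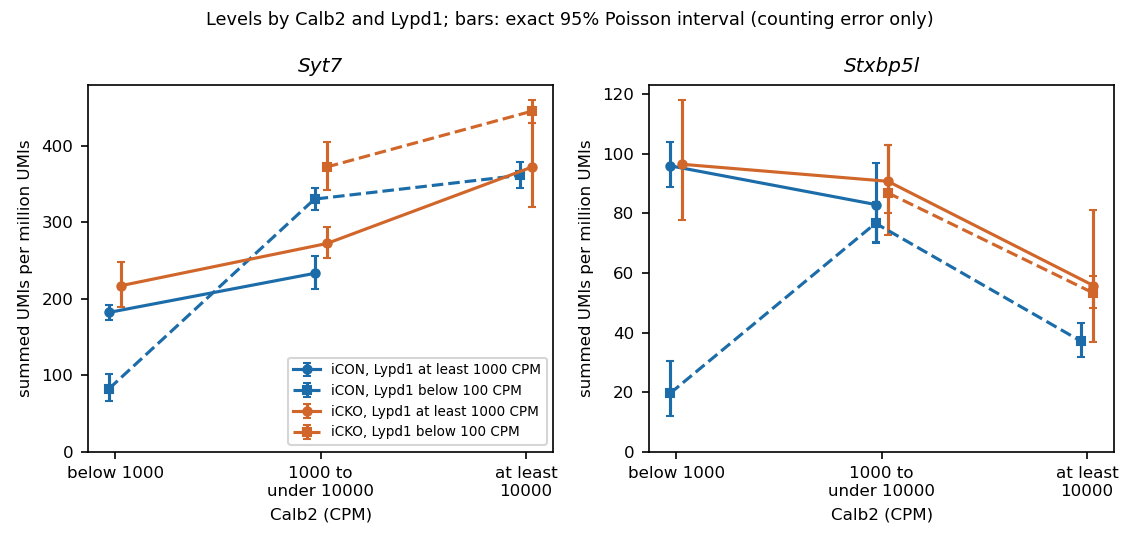
Syt7 and Stxbp5l by Calb2 level (x axis) in cells with Lypd1 of at least 1000 CPM (solid lines, circles) and under 100 CPM (dashed lines, squares), as summed UMIs scaled like CPM. Bars are exact 95% Poisson intervals for counting error only, and bins with fewer than 14 cells are left out. Syt7 is higher at higher Calb2 in both libraries; Stxbp5l is lower at 10000 CPM of Calb2 or more than at 1000 to under 10000, and in iCON cells low in both genes it is lower still (19.6).

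None of the other members past the minimum reached 1.5-fold between Lypd1-high and Calb2-high cells. Sv2a was lower in Lypd1-high than in Calb2-high cells (145 against 202 CPM in iCON, log2 ratio -0.46, and 148 against 186 CPM in iCKO, -0.32). Synm, a symbol match, was higher (349 against 257 CPM in iCON, 0.44, and 396 against 268 CPM in iCKO, 0.55). Syn2 was higher in iCON (92.1 against 66.0 CPM, 0.45) and in iCKO (115 against 95.3 CPM, 0.26), and Rab3c in both (0.31 and 0.38). The core genes Snap25, Rab3a, Vamp1, Cplx1 and Syt2 had log2 ratios from -0.19 to 0.16 in iCON and from -0.11 to 0.09 in iCKO. Stx8, an endosomal syntaxin, had ratios of opposite sign, -0.16 in iCON and 0.39 in iCKO; the difference was not tested.

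Between Calb2-intermediate and Calb2-high cells, Stxbp5l alone was past 1.5-fold among members past the minimum. Its log2 ratio was 0.94 in iCON (interval 0.79 to 1.31) and 0.64 in iCKO (0.41 to 0.99). This is 1 of 35 members (2.86%) in each library, against 2.72% of all genes in iCON and 1.79% in iCKO. These shares lie near each other, so the count describes Stxbp5l and not the members as a group. In iCON Stxbp5l passed the minimum only through the Calb2-intermediate cells, where it was high. In iCKO it was no longer past 1.5-fold with 20 CPM added, or among cells with little myelin RNA (0.44). Sv2c, a vesicle protein, came next in iCON (55.5 against 37.3 CPM, 0.52, past the minimum on the higher side only) and was 0.26 in iCKO. Rab33a, a symbol match, was lower in both libraries (-0.50 and -0.41), and Syn2 was higher in both (0.49 and 0.30). Cplx2, below the minimum, was at 0.13 in iCON and 0.68 in iCKO, the latter from 11 and 21 UMIs. Syt7 was at -0.16 and -0.25. The contrasts of both classes with Calb2-high cells share those cells, so the recurrence of Stxbp5l is not independent.

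Between the libraries no member past the minimum was past 1.5-fold. Of 35 members compared over all cells, 0 were past it, against 2.61% of all 3761 genes compared. The same held in Lypd1-high cells (0 of 35; 2.82% of all genes), Calb2-high cells (0 of 34; 1.34%) and Calb2-intermediate cells (0 of 34; 2.62%). The median log2 ratio of iCKO over iCON was 0.06, 0.04, 0.00 and 0.05 for the members and 0.01, 0.01, 0.02 and 0.04 for all genes. Over all cells the members past the minimum ran from -0.32 (Snapin, past it only through iCON, the higher side) to 0.46 (Syt7). No statement that the genotypes are alike follows from this, because each is 1 library.

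Syt7 had the highest ratio over all cells. It averaged 267 CPM in iCON and 370 CPM in iCKO (log2 ratio 0.46, 0.41 to 0.52). It was higher in iCKO within each class, by 0.45 in Lypd1-high, 0.28 in Calb2-high and 0.18 in Calb2-intermediate cells. Among cells with Xist the ratio over all cells was 0.64, which is past 1.5-fold, and among cells with Y-linked RNA it was 0.18. Calb2-high cells, where Syt7 was highest, were 18.4% of iCON and 49.4% of iCKO cells, and the part of this in the ratio over all cells was not tested.

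Among the SNARE genes, Snap25 was lower in iCKO in every class (3327 and 2744 CPM in Lypd1-high, 3043 and 2732 CPM in Calb2-high, 3327 and 2855 CPM in Calb2-intermediate cells; log2 ratios -0.28, -0.16 and -0.22). Of the synapsins, Syn1 had log2 ratios of 0.25, 0.20 and 0.40 and Syn2 of 0.30, 0.50 and 0.31, in the same order, all below 1.5-fold. For Syn2 the ratio was -0.23 in Lypd1-high cells with Y-linked RNA and -0.15 in Calb2-intermediate cells with little myelin RNA. Syn3, below the minimum, was at 0.03, 0.10 and 0.18. Stxbp5l was higher in Calb2-high iCKO cells (37.6 and 54.1 CPM, 0.47, interval 0.25 to 0.79), where it passed the minimum only through iCKO, the higher side. In Lypd1-high cells it was at -0.12 (-0.26 to 0.10). Cplx2, below the minimum, was lower in Lypd1-high iCKO cells (log2 ratio -0.73, interval -1.16 to -0.55, against -0.31 and -0.51 within the Calb2 bins above), and it was at -0.70 among cells with Xist and -2.02 among those with Y-linked RNA. Sv2b and Sv2c were past 1.5-fold in 1 or more classes among cells with Y-linked RNA, where as few as 16 iCKO cells entered. Of all genes compared among those cells, 4.90% in Lypd1-high, 5.09% in Calb2-high and 7.92% in Calb2-intermediate cells were past that fold.

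A small set of cells used other members of the same families. Cells were called type II-marked when they held at least 2 UMIs of at least 3 of 6 type II markers; there were 27 in iCON and 4 in iCKO, all among the remaining cells. This comparison was made after values were seen. In the 27 iCON cells the 6 markers summed to an average of 1805 CPM against 44.5 CPM in the other 435 cells, with Th at 491 and 0 CPM. The markers Smad3 and Etv4 were at 0 in the 27 cells. Because the cells were chosen by these same 6 markers, a higher sum was fixed by the choice and lends the name no support. Glial RNA differed in kind: the 5 myelin genes summed to 1543 CPM against 3743 CPM in the others, while Apoe averaged 1212 against 17.9 CPM and Fabp7, a gene of satellite glia, 456 against 9.92 CPM. Sox10 was at 12.1 against 10.9 CPM. The sum of these last 3 genes was uneven, with a lowest, median and highest cell of 0, 225 and 6947 CPM, and 18 of the 27 cells above 0. The part of this glial RNA in the differences below was not tested. The 6 neuronal genes summed to 7361 CPM against 17901 CPM, and the median depth of these cells was 29831 UMIs against 50527.0. All 27 had Xist and no Y-linked RNA, and all 4 in iCKO had the reverse, so sex and library cannot be told apart for them.

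The fast calcium sensor and the vesicle SNARE read in these cells were those of the other paralog. Syt2 had 0 UMIs in the 27 cells, among 823604 UMIs in all, against a mean of 348 CPM in the other iCON cells, which is at least 95.6-fold lower when a count of 3 over the group is taken as the limit. Syt1 averaged 114 CPM, with a UMI in 26 of the 27 cells, against 3.35 CPM and a UMI in 27 of 435 cells. Vamp1 averaged 22.0 CPM against 607 CPM, and Vamp2 averaged 320 CPM, with a UMI in all 27, against 46.5 CPM. The share of Syt2 in its pair was 0% (upper bound 3.85) and that of Vamp1 in its pair 6.74% (4.10 to 10.3), against 93.0% to 100% in the 3 classes of iCON. The 4 iCKO cells showed the same pattern, with 0 UMIs of Syt2 and 8 of Syt1, and 2 UMIs of Vamp1 and 46 of Vamp2. The complexin was the same as elsewhere, as Cplx1 gave 97.4% (94.9 to 98.9) of the pair.

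**Figure D4:**
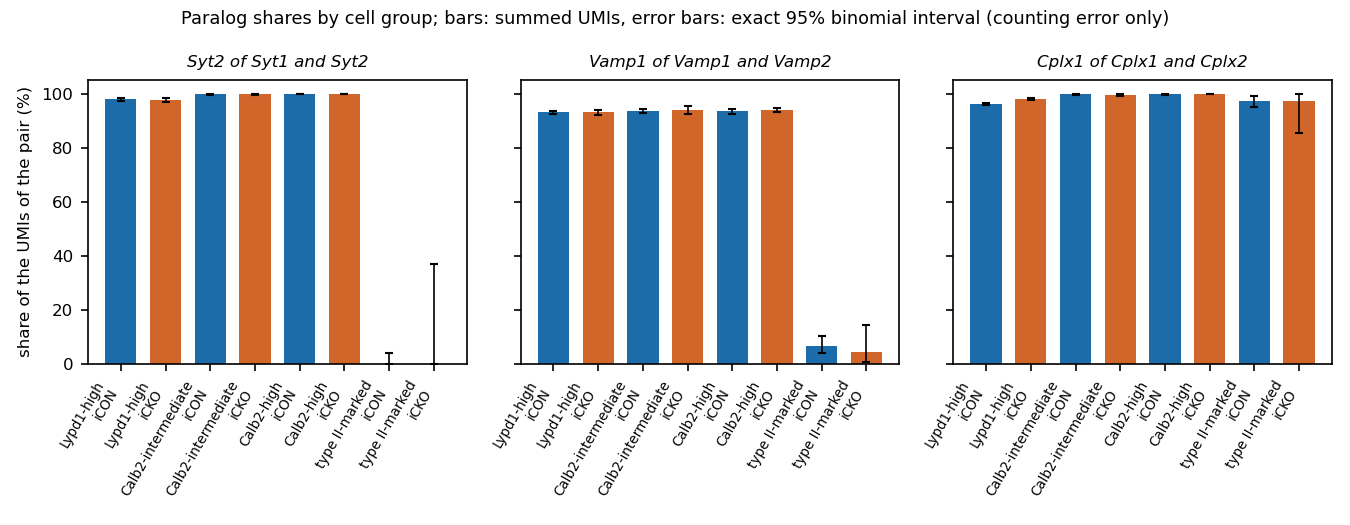
Share of Syt2, Vamp1 and Cplx1 in the summed UMIs of their pair (%), by class and in type II-marked cells, with iCON in blue and iCKO in orange. Error bars are exact 95% binomial intervals for counting error only; Syt2 and Vamp1 give over 90% of their pair in the 3 classes and under 10% in type II-marked cells (0% and 6.74% in iCON), while Cplx1 stays above 95%.

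Other members also differed in type II-marked cells. Of 38 members compared, 27 were past 1.5-fold (8 higher and 19 lower), which is 71.1%, and 47.6% of all genes compared were past that fold in this contrast. The median log2 ratio was -0.35 for the members and -0.00 for all genes. Of the 27, 13 had passed the minimum on the higher side only, among them Syt1, Syt2, Vamp1, Vamp2 and Vamp8. Of the 25 members past it on both sides 14 were past 1.5-fold. No share of all genes past the minimum on both sides is given here, so that count cannot be set against one. Vamp8, a SNARE of endosomes, was at 133 against 20.2 CPM, and Rims2 at 118 against 61.3 CPM. Sv2b and Synm had 0 UMIs, at least 28.2-fold and 82.8-fold lower. Other core genes were lower but present: Snap25 averaged 845 against 3251 CPM, Cplx1 357 against 1250 CPM and Syt7 54.9 against 280 CPM. Syt11 was at 934 against 992 CPM (log2 ratio -0.09, interval -0.16 to 0.05).

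Of 44 further genes of vesicle release and recycling in a fixed list, 40 were listed in the table. In iCON, 23 could be compared between Lypd1-high and Calb2-high cells, and 3 were past 1.5-fold higher and 1 lower, against 6.49% of all genes. Rph3a, which encodes rabphilin, a Rab3 effector, averaged 153 CPM in Lypd1-high and 29.6 CPM in Calb2-high cells (log2 ratio 2.19), and in both libraries it passed the minimum only through Lypd1-high cells. Dnm3, a dynamin, averaged 643 and 351 CPM (0.86), and Sncg, which encodes gamma-synuclein, 248 and 109 CPM (1.15). Syngr1, which encodes the vesicle protein synaptogyrin, was lower, at 59.8 and 111 CPM (-0.84). In iCKO the first 3 were past it again, Rph3a at 2.75, Dnm3 at 0.75 and Sncg at 1.18, and Syngr1 was at -0.32, so that 3 of 24 compared were past it, against 4.10% of all genes. The median log2 ratio of this list was 0.04 in iCON and 0.03 in iCKO.

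Between the libraries, 2 of 24 genes of this list were past 1.5-fold over all cells, against 2.61% of all genes, and 1 of them, Rph3a, only with the type II-marked cells included. Syngr1 was higher in iCKO (75.7 and 118 CPM, log2 ratio 0.61), and most so in Lypd1-high cells (59.8 and 107 CPM, 0.79). Rph3a was lower over all cells (171 and 108 CPM, -0.64) and 28.1 and 59.9 CPM in Calb2-intermediate cells (0.97), where it passed the minimum only through iCKO, the higher side. Its direction over all cells turned among cells with Y-linked RNA, where the ratio was 1.16, and without the type II-marked cells the ratio was -0.05.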

How the data were processed

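The authors' deposited table holds, per cell, values that behave as the natural log of 1 plus CPM over the listed genes. The unit was settled from the values: the linear values of each of 869 cells summed to 1000000, and 100% of nonzero values lay within 1e-06 of a whole multiple of that cell's smallest step, which gave whole UMIs. The submitters' processing notes name Cell Ranger, Seurat and mm10; versions and filters are not given in the sources used here. A deposited annotation gave each cell's library.

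Levels are mean CPM over cells. Ratios are log2 with 5 CPM added to each mean, for genes with at least 50 CPM and a UMI in at least 25% of cells on either side. Intervals (exact Poisson for ratios, from summed UMIs without the added 5 CPM, and Clopper-Pearson for shares) cover counting error only. A count of 0 was given the limit of 3 counts. Thinning to 20000 UMIs left out 8 iCON and 2 iCKO cells. With 1 library per genotype no test was run. Doublets were not called. Scripts used Python 3.11.15, numpy 2.4.6, pandas 2.3.3 and scipy 1.17.1, and the ratio step was checked on simulated data. Gene positions are from GENCODE M21 and start windows from RefSeq; all 94 members were found in GENCODE.

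Named were core release genes from a fixed list, of which some are not reported here, members past 1.5-fold, and up to 10 members with the largest ratios per comparison; not every one of the last is printed. The members, lists and rules were chosen with earlier results of these data known. Alternatives were another pseudocount, summed UMIs, thinning, median centring, other minima, folds and class limits, and cells split by sex-linked RNA, myelin RNA or type II markers.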

Additional observations from a re-analysis of the deposited data

Results flagged for a closer look

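Vamp2, the minor vesicle SNARE, had library differences of opposite sign in cells of the 2 sexes, and the difference between them was not tested. Among cells with Xist and no Y-linked RNA (252 iCON and 319 iCKO cells) the log2 ratio of iCKO over iCON was -0.77, from means of 78.1 and 43.7 CPM. Among cells with Y-linked RNA and no Xist (202 and 82 cells) it was 0.63, from 43.9 and 70.6 CPM. All 27 type II-marked cells of iCON had Xist and averaged 320 CPM of Vamp2, and all 4 of iCKO had Y-linked RNA and averaged 545 CPM. Without these cells the ratios were -0.15 and 0.07.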

How the results depend on the processing

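The numbers of members past 1.5-fold were small and moved with several settings; the cause was not tested, other than that a lower minimum admits more members. Without a minimum, the number between the libraries was 3 over all cells, 1 in Lypd1-high (Cplx2), 1 in Calb2-high and 2 in Calb2-intermediate cells. In the class contrasts it was 7 (iCON) and 5 (iCKO) for Lypd1-high over Calb2-high, and 2 and 3 for Calb2-intermediate over Calb2-high. A minimum of 20 CPM and 10% of cells, chosen after the values were seen, gave 2, 1, 1 and 1 between the libraries. It gave 3 (Cplx2, Stxbp5l and Syt7) for Lypd1-high over Calb2-high in each library and 1 (Stxbp5l) for Calb2-intermediate over Calb2-high in each. Among cells with Xist there were 2 over all cells (Syt7 and Vamp2), 1 in Lypd1-high and 1 in Calb2-intermediate cells, and 2 for iCON Calb2-intermediate over Calb2-high. Among cells with Y-linked RNA there were 2, 1, 3 and 4 between the libraries, 5 for iCON Lypd1-high over Calb2-high, and 3 for iCON Calb2-intermediate over Calb2-high. Among cells with little myelin RNA there was 1 between the libraries in each class. The class contrasts then gave 5 (iCON) and 1 (iCKO, Syt7 alone) for Lypd1-high over Calb2-high, and 2 for iCON Calb2-intermediate over Calb2-high. Among cells with more myelin RNA, Calb2-intermediate cells had 1 between the libraries, and the iCON Calb2-intermediate contrast had 2. Stricter class limits also gave 2 there. These counts are of 33 to 36 members compared, of 50 to 53 under the lower minimum and of 91 to 94 without one. Over all genes the share past 1.5-fold was 1.34% to 2.82% between the libraries and 1.79% to 6.49% between the classes as reported. It was 1.76% to 4.21% and 3.04% to 5.86% without a minimum, 1.73% to 3.66% and 2.97% to 7.20% under the lower minimum, and 2.69% to 4.51% and 2.54% to 6.94% among cells with Xist. It was 4.0% to 7.92% and 4.85% to 11.1% among cells with Y-linked RNA, 2.75% to 6.01% and 5.04% to 9.29% among cells with little myelin RNA, 1.71% to 2.89% and 2.53% to 6.83% among those with more, and 1.58% to 3.08% and 2.98% to 8.04% under stricter class limits. With 20 CPM added, where 1.15% to 5.11% of all genes were past it between the classes, iCKO had 1 (Syt7) for Lypd1-high and 0 for Calb2-intermediate over Calb2-high. At 2-fold, which 0.508% to 2.57% of all genes passed, the class contrasts gave 1 (Stxbp5l) and 0 for Lypd1-high, and 0 and 0 for Calb2-intermediate cells.

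As a mean share per cell, Syt1 gave 6.79% and 2.01% of its pair in iCON and iCKO and Vamp1 87.4% and 92.1%. By the same measure Sv2a gave 63.6% and Rab3a 95.3% in iCON, and Unc13a 99.4% in iCKO. Without type II-marked cells, chosen after the values were seen, the share from summed UMIs was 1.0% for Syt1 in iCON and 93.1% and 93.4% for Vamp1 in iCON and iCKO. The ratios of single genes in single comparisons were 69, of which 15 were past 1.5-fold. Under 8 settings each, 482 values moved by no more than the distance from the ratio to the farther end of its counting interval. Another 69 moved by more. That interval lacks the added 5 CPM, so the limit is wide for genes with few UMIs. Of the 15 ratios, 1 turned (Rph3a over all cells, 1.16 among cells with Y-linked RNA). Counting the others too, 17 values of 12 ratios had the other sign, among them Vamp2 over all cells (0.63) and Syt1 over all cells (0.69), both among cells with Y-linked RNA. Without type II-marked cells these were 0.07 and 0.22. No paired analysis was possible because each genotype has 1 library, and for the same reason no library could be left out. Depth limits members with few UMIs, for which a single cell can set the mean.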
